A study of Homo sapiens with 2 samples.

Results

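RAB GTPases are the largest branch of the RAS superfamily of small GTP-binding proteins. Each marks the surface of certain membranes, switches on when an exchange factor loads it with GTP and recruits effectors that move, tether or fuse vesicles there, until a GTPase-activating protein switches it off. In epithelial cells they direct secretion, the uptake of receptors and integrins, and the return of these cargoes to the cell surface. The RAB genes were taken as every probe of the deposited table whose gene symbol, updated to its current name, is RAB followed by a number and at most 1 further letter or digit. This gave 46 genes of 12445 named genes on the array, each with 1 probe.

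The samples came from KYSE-170, an established cell line of human oesophageal squamous cell carcinoma. One culture was transfected with an oligoribonucleotide for miR-210, a microRNA that cells make more of when oxygen is low, and the other with an oligoribonucleotide that the labels call ncRNA, whose sequence, like the dose and the time of harvest, is not given in the sources used here. The starting material was total RNA of each, and cRNA labelled with Cy5 was hybridised to 1 oligonucleotide array with 1 colour. With 1 array per transfection no difference has a replicate check and no test was possible, so every comparison below describes these 2 arrays and the number of arrays limits the precision.

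A microRNA is known to guide silencing proteins to transcripts that pair with its seed, and such pairing usually lowers the transcript. Both arms of the miR-210 precursor are shown because the labels name miR-210 for the transfection but do not say which arm the oligoribonucleotide carried. Sequences are from RefSeq on GRCh38.p14. The precursor lies on the minus strand at chr11:568089-568198, with the 3p arm at chr11:568112-568133 and the 5p arm at chr11:568150-568171. In the mature sequences the capitals mark the seed, bases 2 to 8, and in the hairpin they mark both mature arms.
hsa-miR-210-3p: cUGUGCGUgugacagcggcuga
hsa-miR-210-5p: aGCCCCUGcccaccgcacacug
MIR210 hairpin: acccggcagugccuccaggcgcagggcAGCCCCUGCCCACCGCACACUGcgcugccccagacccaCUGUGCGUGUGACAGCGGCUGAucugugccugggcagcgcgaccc
The perfect match of the 3p seed reads ACGCACA as RNA and that of the 5p seed reads CAGGGGC. RAB transcripts were not searched for these letters here.

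Over all 24267 probes the miR-210 array had a median intensity of 36 and the ncRNA array a median of 39, in linear units after a background had been subtracted. Of 9 probes for squamous epithelial markers, 8 were above both medians, and the 9 summed to 11250 on the miR-210 array and 15698 on the ncRNA array. Single markers went either way: KRT17 read 2736 with miR-210 and 1541 with ncRNA, and SFN read 7094 with miR-210 and 12693 with ncRNA. The exception was the probe of TP63, the squamous lineage transcription factor, at 22 and 57 in the same order. All 4 leukocyte marker probes were under both medians, at 10 to 33 on the miR-210 array and 7 to 25 on the ncRNA array, and 2 of 6 fibroblast and 1 of 5 endothelial marker probes were above both. The part of these markers in the RAB values was not tested. Below, intensities are as deposited, and the log2 ratio is miR-210 over ncRNA after quantile normalization of the 2 arrays. Normalization raised this ratio by 0.09 to 0.18 in each RAB gene kept, because the ncRNA array was the brighter of the 2 in this range. Dim probes were set aside, and only those with a mean log2 level over both arrays no lower than 37.5 in intensity, the median probe, were kept.

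Among the RAB genes that passed the level filter, RAB4A, RAB31 and RAB22A were farthest apart. RAB4A and RAB31 were more than 2-fold lower with miR-210, while RAB22A was just over 2-fold higher. Their place in an early endosome group was assigned by hand with earlier results of these data known, and is a description only. The filter kept 30 of the 46 RAB genes. Of these, 1 was at least 2-fold higher, which is 3.33% beside 3.02% of the 6684 kept genes, and 2 were at least 2-fold lower, which is 6.67% beside 3.19%. These RAB shares rest on 1 and 2 genes and are not read as a feature of the family. Without between-array normalization RAB22A dropped under 2-fold and RAB29 reached it, which gave 0 higher and 3 lower, while the kept genes as a whole gave 140 higher and 318 lower in place of 202 and 213. In extracts of whole cultures, fewer cells with a transcript and less of it per cell cannot be told apart.

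The kept RAB genes lay slightly to the lower side, which was not tested and is not read as a feature of the family. Of the 30, 18 had a log2 ratio under 0, 11 were above 0 and RAB9A stood at 0. Their median was -0.17, beside 0.01 for all kept genes, of which 48.6% were under 0. The RAB ratios had an SD of 0.53 across genes, beside 0.54 for all kept genes. A yardstick for a single probe comes from 251 other genes with at least 2 kept probes, in which the ratio of a probe had an SD of 0.44 around its gene. This covers probe noise on the same arrays and leaves out differences between cultures. Beyond it lay 10 RAB genes, 7 lower and 3 higher, or 33.3% beside 34.8% of all kept genes, and no RAB gene had a second probe.

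**Figure D1:**
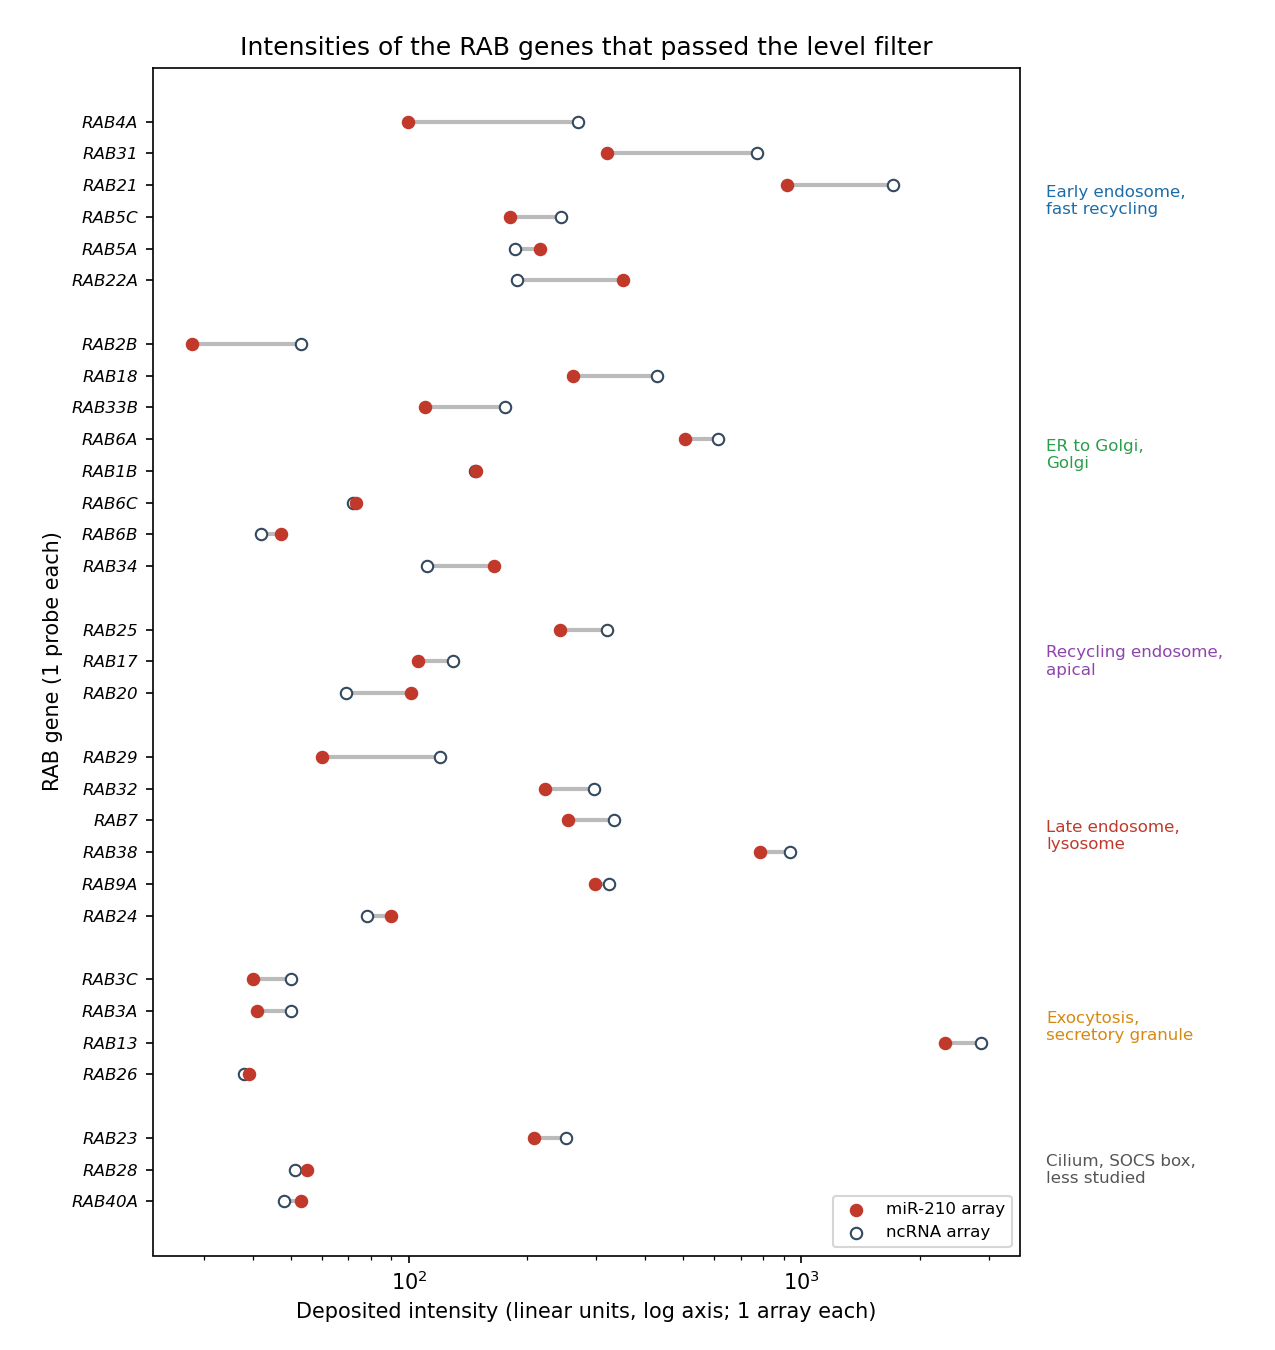
Deposited intensity (linear units on a log axis) of the 30 RAB genes that passed the level filter, with filled points for the miR-210 array and open points for the ncRNA array, grouped by compartment and ordered within it by log2 ratio. RAB4A and RAB31 show the widest gaps to the left, at 99 against 270 and 319 against 770, and RAB22A the widest gap to the right, at 351 against 188.

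The early endosome receives endocytosed receptors and sorts them for return or degradation. RAB4A, which drives the fast return of cargo from early endosomes to the surface, read 99 on the miR-210 array and 270 on the ncRNA array. This is a log2 ratio of -1.34, or 2.52-fold lower, and rank 85 from the lowest of 6684 kept genes. RAB31, a relative of RAB22A also called RAB22B that acts between the trans-Golgi network and endosomes, read 319 with miR-210 and 770 with ncRNA, 2.21-fold lower with a log2 ratio of -1.15 and rank 154 from the lowest. RAB4A and RAB31 stayed beyond 2-fold lower under all 8 alternatives of scaling, offset and filter. The range was -1.45 to -1.02 for RAB4A and -1.27 to -1.04 for RAB31. Only the other scalings and the offsets could move these values. The filters and the mean over probes leave a kept gene with 1 probe as it was.

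RAB22A, which acts in early endosomes and in the recycling of cargo taken up without clathrin, went the other way. It read 351 with miR-210 and 188 with ncRNA, a log2 ratio of 1.02 or 2.03-fold higher, at rank 190 from the highest. Its ratio lay between 0.85 and 1.02 over the same alternatives, positive in each but under 2-fold in 4 of them. Among the other scalings and the offsets, which alone could move it, only a loess fit on level kept it past 2-fold, at 1.01. The log2 ratio of RAB31 minus that of its relative RAB22A was -2.17, beside -0.64 for RAB5C minus RAB5A and 0.03 for RAB3A minus RAB3C. RAB40B minus RAB40C, both under the level filter, was 2.06. RAB31 and RAB22A are named here because they were extremes, so a wide difference between them follows from that choice. RAB21, a regulator of integrin uptake, read 921 with miR-210 and 1710 with ncRNA, a log2 ratio of -0.73. The early endosome fusion factors RAB5C and RAB5A stayed within the spread between probes and on opposite sides of 0. RAB5C read 181 with miR-210 and 244 with ncRNA (log2 ratio -0.32), and RAB5A 215 with miR-210 and 186 with ncRNA (log2 ratio 0.32). RAB genes were grouped by hand from known roles, with earlier results of these data known, so the place of RAB4A, RAB31 and RAB22A in 1 group is given as a description only. With no level filter, 5 of the 8 RAB genes past 2-fold lay in other groups.

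**Figure D2:**
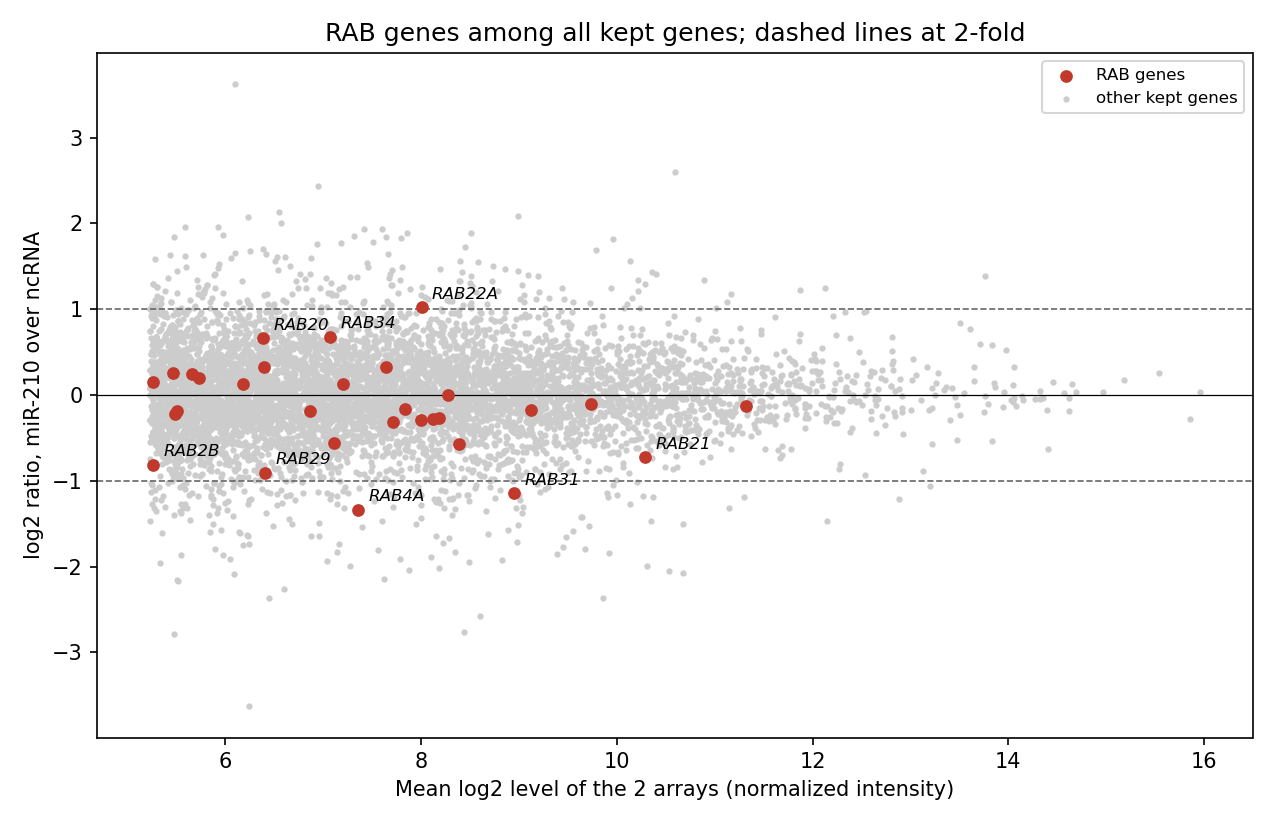
Each point is a gene kept by the level filter, with its mean log2 level over both arrays on the horizontal axis and its log2 ratio, miR-210 over ncRNA, on the vertical axis; RAB genes are red and dashed lines mark 2-fold. RAB4A at -1.34, RAB31 at -1.15 and RAB22A at 1.02 lie past the dashed lines, where 3.19% of kept genes are lower and 3.02% higher.

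Among RABs of the Golgi and the endoplasmic reticulum, 8 of 11 named genes were kept, with 4 above 0 and 4 under it. None of the 8 reached 2-fold, beside 3.02% higher and 3.19% lower of all kept genes. With 8 genes, such a count does not describe the group. Of the dim genes left out, RAB36 was past 2-fold lower (log2 ratio -1.16), while RAB33A (-0.49) and RAB30 (-0.05) were not. RAB2B, a Golgi RAB, read 28 on the miR-210 array and 53 on the ncRNA array (log2 ratio -0.81), with the miR-210 value under that array's median. RAB18, found on lipid droplets and the endoplasmic reticulum, read 262 with miR-210 and 427 with ncRNA (log2 ratio -0.58). RAB33B, a Golgi RAB that also binds the autophagy factor ATG16L1, read 110 with miR-210 and 175 with ncRNA (log2 ratio -0.56). RAB2B, RAB18 and RAB33B were the kept members of the group lower by more than the spread between probes. RAB34, a Golgi RAB that also acts in cilium formation, was higher by more than that spread, with 164 on the miR-210 array and 111 on the ncRNA array (log2 ratio 0.68).

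The other kept RABs of this group were near 0. RAB6A, which drives transport within the Golgi and back to the endoplasmic reticulum, read 504 with miR-210 and 612 with ncRNA (log2 ratio -0.18). Its relative RAB6B read 47 with miR-210 and 42 with ncRNA (log2 ratio 0.26), and RAB6C, a retrogene nearly identical to RAB6A, read 73 with miR-210 and 72 with ncRNA (log2 ratio 0.13). Whether their probes tell RAB6A and RAB6C apart is not known here. RAB1B, which serves transport from the endoplasmic reticulum to the Golgi, read 148 with miR-210 and 147 with ncRNA (log2 ratio 0.13).

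The late endosome and lysosome group had 6 kept genes, with 4 under 0, 1 above and 1 at 0. RAB29, which acts at the Golgi and at stressed lysosomes, read 60 with miR-210 and 120 with ncRNA, a log2 ratio of -0.90 or 1.87-fold lower. It was the only kept member of the group beyond the spread between probes, and it ranged from -1 without normalization to -0.57 with an offset of 50. The probe annotated RAB7, a name that 2 current genes carry as a synonym (RAB7A and RAB7B), read 254 with miR-210 and 332 with ncRNA (log2 ratio -0.27). RAB32 and RAB38 are known for the biogenesis of melanosomes and related organelles. RAB32 read 222 with miR-210 and 296 with ncRNA (log2 ratio -0.30), and RAB38 786 with miR-210 and 934 with ncRNA (log2 ratio -0.11). RAB9A, which returns cargo from late endosomes to the trans-Golgi network, read 297 with miR-210 and 323 with ncRNA, which normalization placed at a log2 ratio of 0. RAB24, tied to autophagy, read 90 with miR-210 and 78 with ncRNA (log2 ratio 0.33).

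Of the kept RABs of recycling endosomes and the apical domain of epithelia, RAB20 lay beyond the spread between probes. RAB20, known from the maturation of phagosomes, read 101 with miR-210 and 69 with ncRNA, a log2 ratio of 0.66. RAB25, an epithelial member of the RAB11 subfamily, read 243 with miR-210 and 320 with ncRNA (log2 ratio -0.28), and RAB17, also epithelial, read 105 with miR-210 and 129 with ncRNA (log2 ratio -0.19).

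The kept RABs of exocytosis and secretory granules differed little. These 4, of 10 named on the array, lay between -0.23 and 0.15, all within the spread between probes. Members of the group left out as dim ran from -1.02 for RAB8B to 0.57 for RAB37. RAB13, which carries junction proteins to the surface of epithelial cells, read 2323 with miR-210 and 2862 with ncRNA (log2 ratio -0.13). RAB3A and RAB3C are known from synaptic vesicles. RAB3A read 41 with miR-210 and 50 with ncRNA (log2 ratio -0.19), and RAB3C 40 with miR-210 and 50 with ncRNA (log2 ratio -0.23). RAB26, a RAB of secretory granules, read 39 with miR-210 and 38 with ncRNA (log2 ratio 0.15). These last 3 lay close to the array medians.

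The 3 remaining kept genes also stayed within that spread. RAB23, an antagonist of Hedgehog signalling, read 208 with miR-210 and 251 with ncRNA (log2 ratio -0.16). RAB28, known from cilia and photoreceptors, read 55 with miR-210 and 51 with ncRNA (log2 ratio 0.20). RAB40A, a member of the RAB40 branch that carries a SOCS box for ubiquitin ligases, read 53 with miR-210 and 48 with ncRNA (log2 ratio 0.24).

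**Figure D3:**
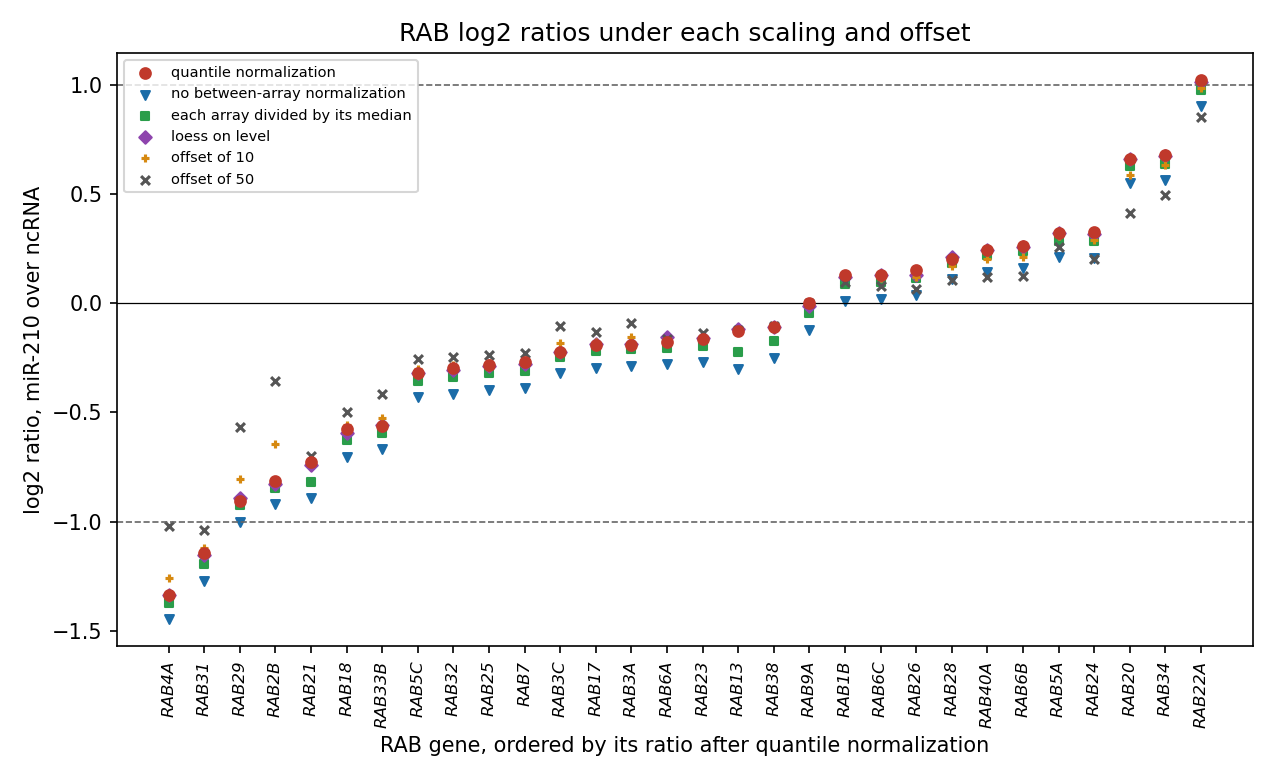
The log2 ratio, miR-210 over ncRNA, of each kept RAB gene (horizontal axis, ordered by its ratio after quantile normalization) under 6 choices of scaling and offset, with dashed lines at 2-fold. RAB4A and RAB31 stay under the lower dashed line under each choice, and RAB22A lies between 0.85 and 1.02.

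The filter left out 16 RAB genes, whose intensities ran from 7 to 36 on the miR-210 array and from 5 to 43 on the ncRNA array, a range that overlaps that of the leukocyte markers. They are RAB3B, RAB3D, RAB8B, RAB9B, RAB11B, RAB26's relative RAB37, RAB27A, RAB27B, RAB30, RAB33A, RAB35, RAB36, RAB39B, RAB40B, RAB40C and the probe annotated RAB39, a name that current RAB39A and RAB34 both carry as a synonym. Of these, 9 were under 0, 6 above 0 and RAB27B at 0. Past 2-fold lay RAB36, with 13 on the miR-210 array and 30 on the ncRNA array, and RAB8B, with 20 and 43 in that order, both lower with miR-210. On the higher side were RAB39B (32 with miR-210 and 8 with ncRNA), the RAB39 probe (13 with miR-210 and 5 with ncRNA) and RAB40B (36 with miR-210 and 18 with ncRNA). RAB40C, with 16 on the miR-210 array and 33 on the ncRNA array, lay just inside the 2-fold limit. With no level filter, 4 of 46 RAB genes passed 2-fold on the higher side and 4 on the lower side, beside 7.05% and 6.95% of 12405 named genes. Differences of this size are thus more common among dim probes on this array. Of the 63 protein-coding RAB genes that RefSeq lists under such a name, 19 had no probe under their current symbol. Of these, RAB7A, RAB7B and RAB39A may be what the RAB7 and RAB39 probes measure, and the others are not analysed here.

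The proteins that load, unload and read RABs were described from lists drawn up by hand. Of 46 exchange factors, 25 were named on the array and 17 kept, with a median log2 ratio of -0.12 (0.05 with no level filter), 7 above 0 and 10 under it. RIN2, an exchange factor for RAB5, was the farthest apart, with 97 on the miR-210 array and 366 on the ncRNA array, 3.49-fold lower. TRAPPC1, a subunit of the TRAPP complexes that act on RAB1 and RAB11, read 39 with miR-210 and 107 with ncRNA, 2.54-fold lower. ANKRD27, an exchange factor for RAB21, read 205 with miR-210 and 441 with ncRNA (log2 ratio -0.98), and DENND4B, which acts on RAB10, read 287 with miR-210 and 562 with ncRNA (log2 ratio -0.85). No exchange factor was 2-fold higher, while 2 of the 17, or 11.8%, were 2-fold lower, beside 3.02% and 3.19% of kept genes. A share that rests on 2 genes is not read as a feature of the list.

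GTPase-activating proteins showed no member past 2-fold among 13 kept of 20 named, beside 3.02% higher and 3.19% lower of kept genes. With 13 genes, such a count does not describe the list. Their median of 0.03 turned to -0.07 without between-array normalization and to -0.11 with no level filter. USP6NL, an activating protein for RAB5 and RAB43, came closest with 88 on the miR-210 array and 185 on the ncRNA array (log2 ratio -0.96). TBC1D12 stood at 0.73 (56 with miR-210 and 36 with ncRNA), TBC1D17 at -0.67 (33 with miR-210 and 56 with ncRNA) and TBC1D10A at 0.57 (46 with miR-210 and 33 with ncRNA). The lower value of each was under the median of its array. An offset of 50 brought them to 0.35, -0.31 and 0.25 in that order, within the spread between probes. Of 30 named effectors, 20 were kept, with a median of 0.08 that turned to -0.08 with the filter at the 75th percentile and to -0.03 without between-array normalization. Past 2-fold lay 2 higher effectors (10% of the 20, beside 3.02% of kept genes) and 1 lower one (5%, beside 3.19%), again too few to describe the list. ACAP2, which binds RAB35 and inactivates ARF6, read 553 with miR-210 and 247 with ncRNA, 2.41-fold higher. SYTL2, a RAB27 effector of secretory vesicles, read 122 with miR-210 and 58 with ncRNA, 2.25-fold higher. OPTN, a RAB8 effector and autophagy receptor, read 135 with miR-210 and 332 with ncRNA, 2.26-fold lower. The next effector, the RAB11 partner RAB11FIP4, stood at 0.76 (61 with miR-210 and 39 with ncRNA). The RABs named for SYTL2, OPTN and ACAP2 gave no kept value here. RAB27A, RAB27B, RAB8B and RAB35 were under the filter, and RAB8A had no probe under its current symbol.

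The prenylation and membrane cycle list had 2 kept members. GDI2, which extracts inactive RABs from membranes, read 1189 with miR-210 and 698 with ncRNA (log2 ratio 0.92), and RABGGTB, a subunit of the enzyme that attaches their lipid anchors, read 748 with miR-210 and 1027 with ncRNA (log2 ratio -0.30). The RAB-like proteins, relatives outside the numbered family, had 4 kept members with a median of 0.22. RABL3 stood at 0.84 (98 with miR-210 and 59 with ncRNA), the intraflagellar transport genes IFT22 and IFT27 at 0.41 and -0.13, and RABL2B, whose near-identical copy RABL2A may share its probe, at 0.02 (-0.22 without between-array normalization).

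**Figure D4:**
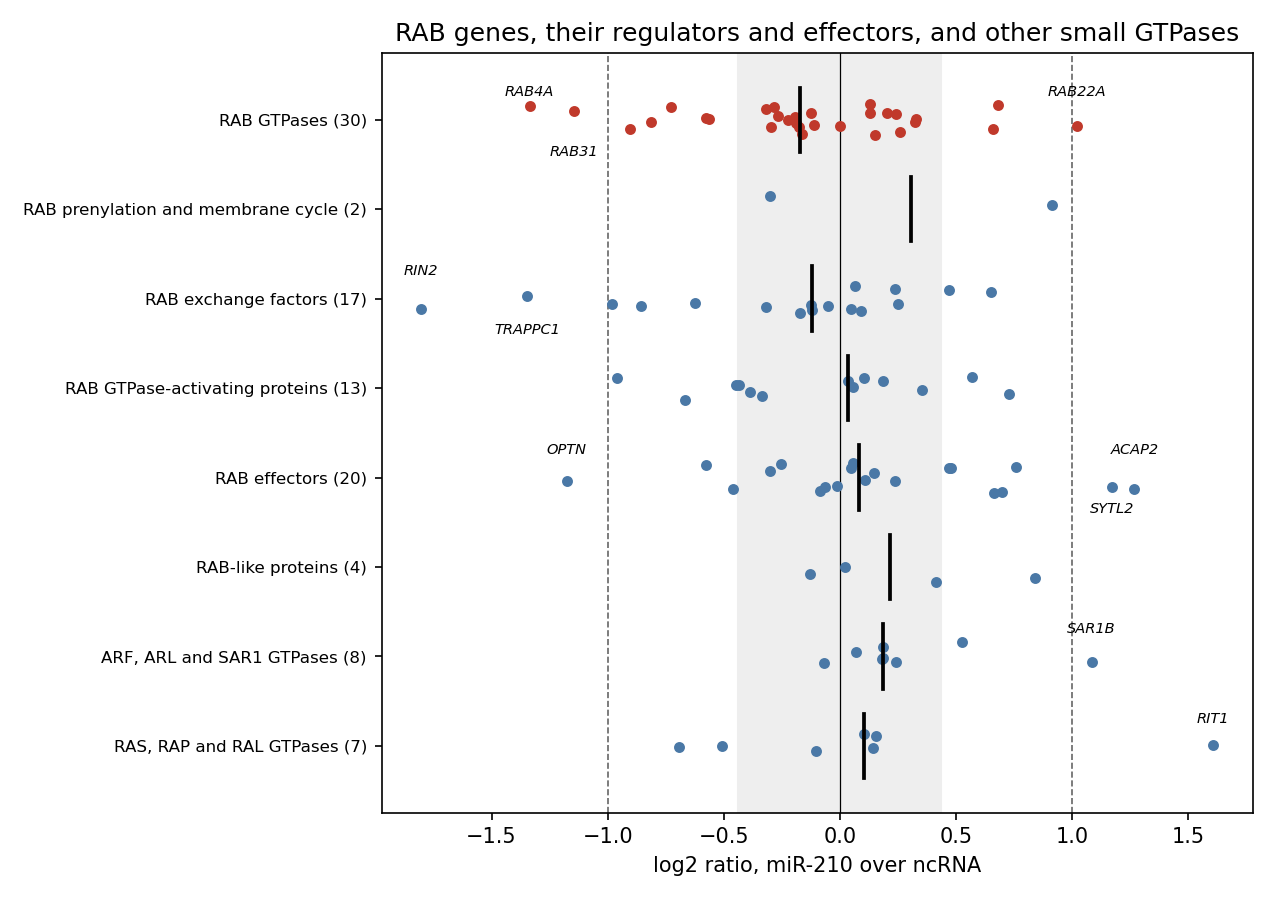
Log2 ratio, miR-210 over ncRNA, of each kept member of the RAB family, of the lists of RAB regulators, effectors and relatives and of other small GTPase families (rows, number of kept members in brackets); black bars are medians, the grey band is the SD of 0.44 between probes of a gene and dashed lines mark 2-fold. The RAB median lies at -0.17, and each row has members on both sides of 0.

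Other branches of the superfamily were set beside the RABs with their own lists. ARF, ARL and SAR1 genes had 8 kept members, 7 of them above 0, beside 3358 of all 6684 kept genes. Their median of 0.18 fell to 0.07 without between-array normalization, where TRIM23 turned to -0.04. SAR1B, which starts the COPII coat at the endoplasmic reticulum, read 1041 with miR-210 and 537 with ncRNA, 2.12-fold higher. Without between-array normalization the log2 ratio of SAR1B was 0.95, under 2-fold. ARL6, ARFRP1 and ARL1 stood at 0.52, 0.24 and 0.19. The second kept probe of ARFRP1 stood at -0.83, on the other side of 0. RAS, RAP and RAL genes had 7 kept members and a median of 0.10 (-0.20 with the filter at the 75th percentile and -0.06 without between-array normalization), with RIT1, a RAS relative that feeds MAP kinase signalling, 3.04-fold higher (164 with miR-210 and 58 with ncRNA). The exocytosis regulator RALA stood at -0.69, RAP2C at -0.51 and RAP2A at 0.15. SAR1B and RIT1 were the only members past 2-fold, or 12.5% and 14.3% of their lists, beside 3.02% of kept genes. A share that rests on 1 gene is not read as a feature of a list. No difference between these families and the RABs was tested.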

How the data were processed

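The deposited table gives 1 linear intensity per probe and array. Per the labels' protocols, cRNA was labelled with Cy5. How the authors scanned, corrected and scaled the arrays is not given in the sources used here. The deposited values run from -8 to 65496, and those under 0 require an earlier background subtraction. The highest RAB intensity, 2862, was far from saturation.

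The 24177 probes above 0 on both arrays were taken to log2 and quantile normalized, and 12090 were kept at the median level. Where several probes of a gene passed, the brightest stood for it. Platform symbols (13395 probes had 1, none several) were updated through synonyms carried by 1 gene in the RefSeq table. Called means at least 2-fold (log2 ratio of 1); no p-value was computed. RAB members, roles and lists were chosen with earlier results of these data known; 1 list is not reported here. Each kept RAB gene is named with both intensities, and of each list the members past 2-fold or the 4 most distant. Normalization and calling were tested on simulated data, which hold no replicate of these 2 arrays and cannot show how far a 2-fold call on them holds. Python 3.11.15, pandas 2.3.3 and statsmodels 0.14.6 were used.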

Additional observations from a re-analysis of the deposited data

How the results depend on the processing

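The 8 alternatives covered 3 other scalings, offsets of 10 and 50 before log2, no level filter, a filter at the 75th percentile and the mean over probes. All 18 kept RAB genes under 0 and all 11 above 0 kept that sign in each alternative run for them, and RAB9A was at 0 or under it. Only the 3 other scalings could change a sign. The offsets, the filters and the mean over probes cannot move a gene with 1 probe across 0. The RAB median was -0.28 without between-array normalization, where the median of all kept genes was -0.12, and stayed between -0.27 and -0.11 in the others. The count of RAB genes at least 2-fold higher was 0 without between-array normalization, with each array divided by its median and with either offset. With no level filter it was 4, as was the count at least 2-fold lower. Among single genes, the offset of 50 brought RAB2B to -0.35, TRAPPC1 to -0.76, SYTL2 to 0.73 and OPTN to -0.95, all under 2-fold. Without between-array normalization SAR1B stood at 0.95, ANKRD27 at -1.11 and USP6NL at -1.07. The median of the exchange factors was 0.049 with no level filter; with the filter at the 75th percentile that of the effectors was -0.084 and that of the RAS, RAP and RAL genes -0.20. Averaging the 2 kept probes of ARFRP1 gave -0.29, and RABL2B was at -0.22 without between-array normalization and -0.15 with each array divided by its median, which also put ANKRD27 at -1.03. The cause of these shifts was not tested. No paired analysis was possible because each group has 1 array, and no array could be left out. Dim signals near the array median limit the ratios of RAB2B, RAB3A, RAB3C, RAB6B and RAB26. The same holds for TRAPPC1, TBC1D10A, TBC1D12, TBC1D17 and RAB11FIP4, each with a value near or under the median of its array.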
